A study of Homo sapiens with 4 samples.

Results

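The 10 genes of the CDK inhibitors and the D-type cyclins were examined in HLE cells, a human hepatocellular carcinoma line. They were taken by symbol from the 20286 gene identifiers of the count tables: CDKN1A, CDKN1B and CDKN1C, CDKN2A, CDKN2B, CDKN2C and CDKN2D, and CCND1, CCND2 and CCND3. All 10 had a row, 9 had enough counts to be tested, and CCND2 was listed at 0 in every library. Total RNA came from 2 cultures with stable expression of CYR61 (current symbol CCN1), a secreted matrix-associated protein, and from 2 cultures stably carrying the empty vector, all untreated. The series description gives the cultures as independent and drawn from the whole stable population, not from a clone. The labels do not name the promoter that drives the introduced gene. Each group is 1 stable population, so p-values measure the spread between its cultures, not between separately made populations.

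CDK4 and CDK6 are switched on by D-type cyclins and phosphorylate the RB protein, which releases E2F factors and lets a cell pass from G1 into S phase. The INK4 inhibitors, encoded by the CDKN2 genes, bind CDK4 and CDK6 and keep them from the D-type cyclins. The CIP/KIP inhibitors, encoded by the CDKN1 genes, bind complexes of cyclins with several CDKs, and above all restrain CDK2. Loss of these brakes and excess of cyclin D1 are frequent in liver cancer.

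The libraries held 16186988 to 21588822 estimated counts. CCN1 itself was at 8091 and 8620 CPM (counts per 1e6, on TMM-scaled library sizes) in the CYR61 cultures, against 221 and 218 CPM in the vector cultures (log2 fold change 5.25, edgeR adjusted p = 1.33e-08), which is the direction of the labels. Of the hepatocyte markers, ALB, TTR and APOB were listed at 0 in all 4 libraries, and the sum of all 10, mostly FGB and TF, was 33.1 to 35.6 CPM in CYR61 and 21.8 to 23.3 CPM in vector cultures. The 6 epithelial markers, mostly KRT8 and KRT18, summed to 4217 to 4683 CPM in CYR61 and 3273 to 3796 CPM in vector cultures. Other epithelial markers were low over the libraries: KRT19 at 0 to 0.0906, EPCAM at 0.319 to 1.36 and CDH1 at 1.04 to 2.61 CPM. Of 8 fibroblast markers 5 stayed below 1 CPM in every library, as did 5 of 6 endothelial and 6 of 7 leukocyte markers. The summed markers were at 39.0 to 39.1 CPM in CYR61 and 38.7 to 47.4 CPM in vector cultures for fibroblasts. For endothelium they were at 2.61 to 2.69 CPM in CYR61 and 2.04 to 2.71 CPM in vector cultures. The leukocyte sum, 49.1 to 54.1 CPM in CYR61 and 63.7 to 68.3 CPM in vector cultures, came almost wholly from CD68, and PTPRC was at 0 to 0.0453 CPM. Of all these markers 3 were called by edgeR: FGB rose (log2 fold change 1.85), DCN, a fibroblast marker, rose (2.34), and CLDN1, an epithelial junction gene, fell (-0.90). DCN had 3.68 and 2.26 CPM in CYR61 and 0.637 and 0.544 CPM in vector cultures, and CLDN1 had 16.3 and 19.5 CPM in CYR61 and 33.0 and 33.8 CPM in vector cultures. The part of these markers in the results was not tested.

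CDK inhibitor transcripts were lower in CYR61 cells for some genes of both families, and the D-type cyclins were not. CDKN1A fell 3.25-fold, CDKN2B 2.02-fold and CDKN1C 1.87-fold. In bulk RNA, fewer cells with a transcript and less of it per cell cannot be told apart. These were 3 of the 9 tested genes, where 4.56% of all 12698 tested genes were called lower. None of the 9 was called higher by edgeR, DESeq2 or limma-voom, where edgeR called 1.83%, DESeq2 2.8% and limma-voom 1.72% of all tested genes higher. At an unadjusted p below 0.05 in edgeR, 1 of the 9, CCND3, was higher and 4 were lower, where 9.77% of all tested genes were higher and 13.2% lower. DESeq2 and limma-voom called the same 3 genes lower, where they called 4.64% and 4.37% of all tested genes lower. A called gene is one with an adjusted p below 0.05 in edgeR's quasi-likelihood test. In CPM, both CYR61 libraries lay below both vector libraries for 4 of the 9 genes and above them for 3, against 27.7% and 23.9% of all tested genes.

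**Figure D1:**
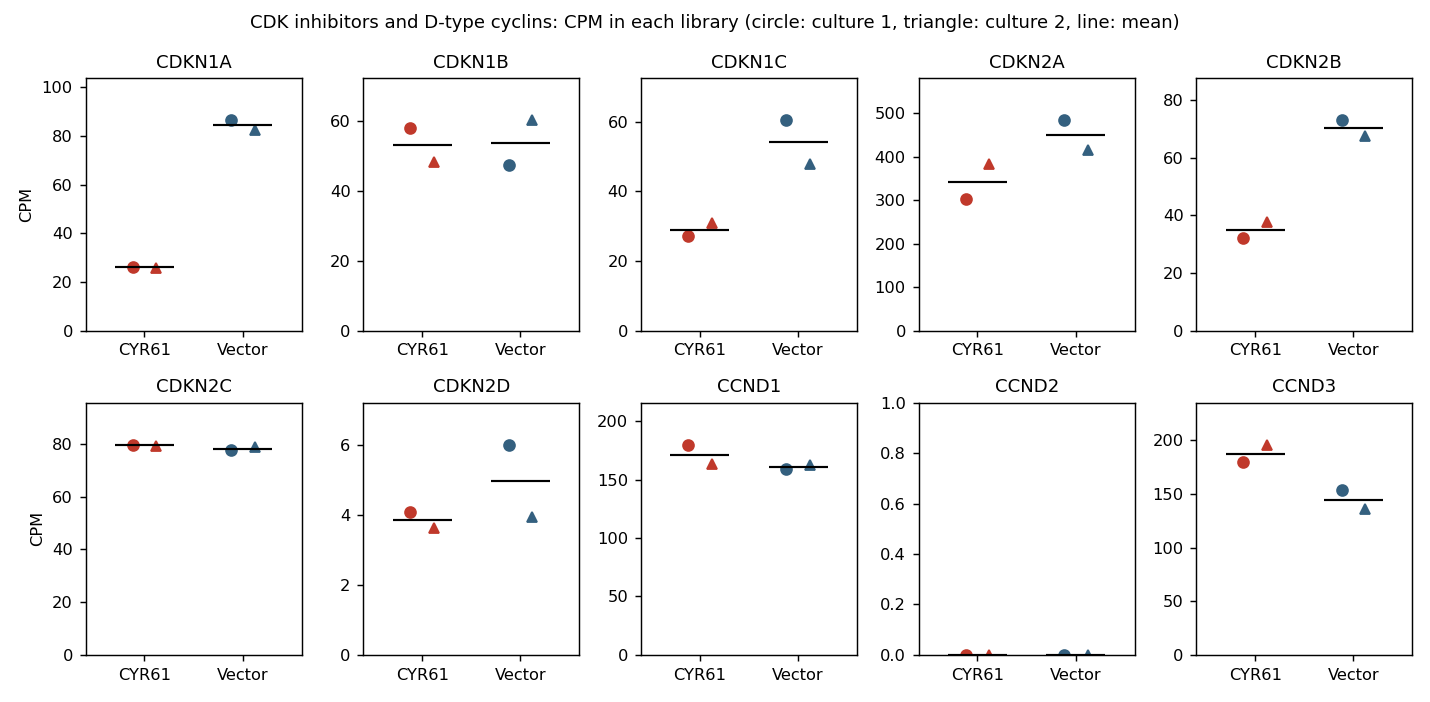
CPM on the vertical axis, with a scale of its own for each gene, in the 2 CYR61 cultures (left in each panel) and the 2 vector cultures (right), with the mean of each group as a line. CDKN1A, CDKN1C and CDKN2B lie well below their vector values in both CYR61 cultures, CDKN1B overlaps, and CCND2 is at 0 throughout.

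The promoter windows of CDKN1A and CDKN2B, both lower in CYR61 cells, and both windows of CDKN2A, the neighbour of CDKN2B, are printed below to show what the start regions of these inhibitor genes share. They are RefSeq windows of 250 bases before to 50 after a start site on GRCh38.p14, 5′ to 3′ on the strand of the gene. Capitals mark GGGCGG or its complement CCGCCC, the GC box bound by SP1-type factors.
CDKN1A, chr6:36678464-36678763, plus strand: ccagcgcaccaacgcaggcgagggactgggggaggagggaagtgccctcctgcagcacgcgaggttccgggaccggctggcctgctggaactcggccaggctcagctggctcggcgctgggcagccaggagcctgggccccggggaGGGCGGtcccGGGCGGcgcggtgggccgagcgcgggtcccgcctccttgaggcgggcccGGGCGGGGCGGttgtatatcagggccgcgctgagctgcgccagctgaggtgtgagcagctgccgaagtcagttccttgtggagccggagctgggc
CDKN2B, chr9:22009256-22009555, minus strand: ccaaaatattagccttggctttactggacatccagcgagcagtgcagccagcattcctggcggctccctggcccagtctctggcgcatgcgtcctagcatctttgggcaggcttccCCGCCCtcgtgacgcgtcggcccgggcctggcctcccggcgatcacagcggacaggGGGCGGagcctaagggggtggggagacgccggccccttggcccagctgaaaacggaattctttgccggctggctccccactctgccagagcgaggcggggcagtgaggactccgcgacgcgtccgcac
CDKN2A at the start of its p16 transcript, chr9:21974808-21975107, minus strand: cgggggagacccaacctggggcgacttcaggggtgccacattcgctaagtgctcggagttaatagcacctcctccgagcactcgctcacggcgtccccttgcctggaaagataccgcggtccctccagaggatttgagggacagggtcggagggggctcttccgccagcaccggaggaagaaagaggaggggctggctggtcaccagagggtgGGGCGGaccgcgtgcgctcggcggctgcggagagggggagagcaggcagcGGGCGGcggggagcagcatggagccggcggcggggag
CDKN2A at the start of its ARF transcript, chr9:21995275-21995574, minus strand: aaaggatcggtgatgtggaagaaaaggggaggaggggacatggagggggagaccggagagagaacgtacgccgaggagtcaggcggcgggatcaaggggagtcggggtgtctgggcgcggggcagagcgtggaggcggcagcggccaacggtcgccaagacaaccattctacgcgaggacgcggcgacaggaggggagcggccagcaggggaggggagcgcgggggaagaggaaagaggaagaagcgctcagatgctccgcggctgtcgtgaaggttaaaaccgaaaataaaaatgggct

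The CDKN1A window held 4 GC boxes, which began 104, 94, 45 and 40 bases before the start site, and the last pair overlapped. The CDKN2B window held 2, which began 134 and 78 bases before its start. The p16 window of CDKN2A held 2 and the ARF window 0. GC boxes were also found where the RNA was not called: 1 in the CDKN1B window, 3 in that of CDKN2D, up to 6 in a CDKN2C window and up to 5 in a CCND3 window. On either strand, 44.95% of the 35116 windows of all genes hold at least 1 match, which is a description of these letters only. None of the 4 printed windows held TATAAA, the E-box CACGTG, the AP-1 motif TGACTCA or the cyclic AMP response element TGACGTCA, which occur in 11.5%, 7.26%, 4.95% and 1.85% of all windows. The table held windows for 7 of the 10 genes, and CDKN1C, CCND1 and CCND2 had none.

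Among the CIP/KIP genes, CDKN1A encodes p21, an inhibitor induced by TGF-beta signalling (ENSG00000124762, hg38 chromosome 6, 36676460 to 36687339, plus strand). It had 26.1 and 25.9 CPM in the CYR61 cultures, against 86.4 and 82.4 CPM in the vector cultures, from 560 and 414 counts and from 1628 and 1820 counts. The cultures of each group were close to each other, and the groups were far apart. The log2 fold change was -1.70 (SE 0.13, 95% interval -1.98 to -1.42, edgeR adjusted p = 0.000103). It remained called under all 16 alternative settings, with a log2 fold change of -1.73 to -1.61.

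CDKN1C encodes p57, an imprinted inhibitor that restrains growth in development (ENSG00000129757, chromosome 11, 2883213 to 2885773, minus strand). It had 27.1 and 30.9 CPM in the CYR61 cultures, against 60.4 and 47.9 CPM in the vector cultures. The groups did not overlap, although vector 1 was well above vector 2. Its log2 fold change was -0.90 (SE 0.16, 95% interval -1.25 to -0.56, edgeR adjusted p = 0.00823). Without vector 1 it was -0.73 (edgeR adjusted p = 0.0377), the least of its values under the 16 alternatives, in all of which it was called.

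CDKN1B encodes p27, an inhibitor controlled largely by protein turnover (ENSG00000111276, chromosome 12, 12715058 to 12722371, plus strand). It had 58.1 and 48.4 CPM in the CYR61 cultures, against 47.4 and 60.1 CPM in the vector cultures. The groups overlapped. Its log2 fold change was -0.01, and the 95% interval, -0.36 to 0.33, leaves room for a fold of 0.779 to 1.26.

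Of the CIP/KIP transcripts, CDKN1A and CDKN1B held different shares in the 2 groups, while the share of CDKN1C overlapped. Shares restate the levels of the 3 genes: that of CDKN1B rose although its own log2 fold change was -0.01. Levels of different genes were set side by side as CPM per kb of merged exon. The sum of the 3 genes was 40.1 and 38.2 CPM per kb in the CYR61 cultures, against 69.6 and 67.8 CPM per kb in the vector cultures. CDKN1A made up 21.8 ± 0.698% of that sum in CYR61 cells and 40.3 ± 0.596% in vector cells (SD, n = 2 each), a difference of -18.5 percentage points. CDKN1B made up 48.3 ± 4.53% in CYR61 cells and 27.9 ± 5.17% in vector cells, while CDKN1C was at 29.9 ± 3.83% and 31.8 ± 4.58%. With 2 cultures against 2, the two-sided exact permutation test cannot go below p = 0.333, which is what the CDKN1A and CDKN1B shares gave.

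**Figure D2:**
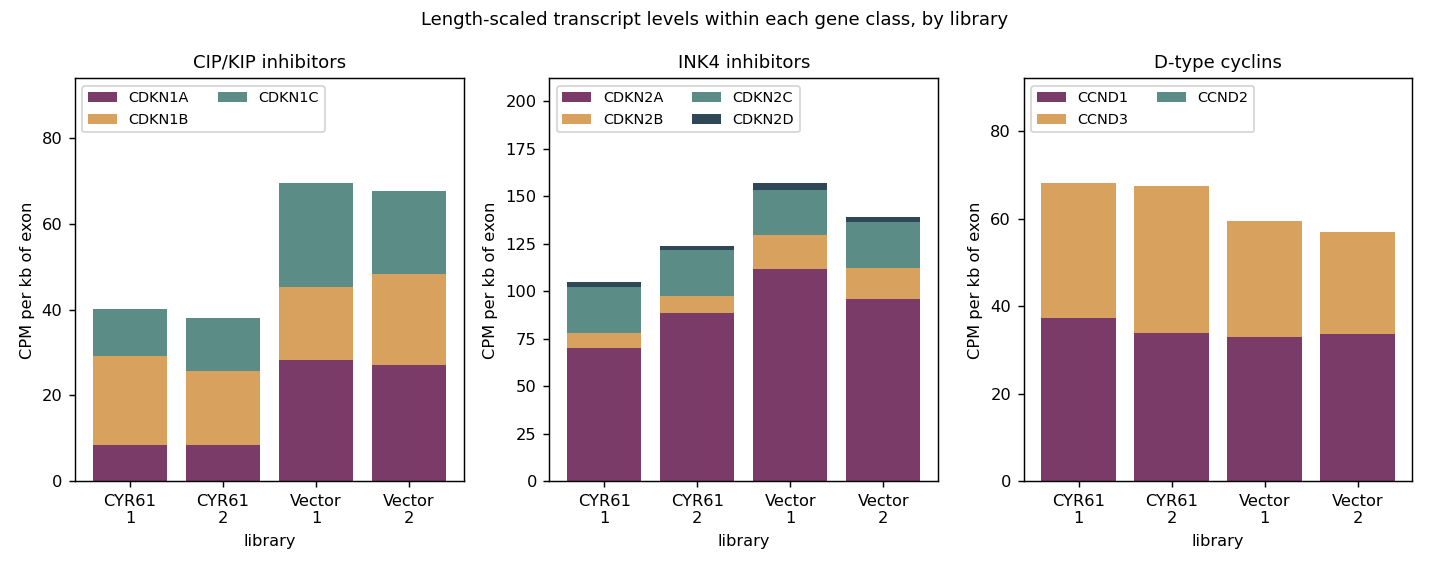
CPM per kb of merged exon, stacked by gene, in each CYR61 library (left pair) and each vector library (right pair), for the CIP/KIP inhibitors, the INK4 inhibitors and the D-type cyclins, 1 replicate per bar. The CIP/KIP bars reach 40.1 and 38.2 in CYR61 and 69.6 and 67.8 in vector libraries, and the D-type cyclin bars 68.1 and 67.5 in CYR61 and 59.4 and 56.98 in vector libraries.

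Among the INK4 genes, CDKN2B encodes p15, an inhibitor known as a target of TGF-beta (ENSG00000147883, chromosome 9, 22002903 to 22009363, minus strand). It had 32.1 and 37.5 CPM in the CYR61 cultures, against 72.9 and 67.5 CPM in the vector cultures. The groups were separated by far more than the spread within either. Its log2 fold change was -1.01 (SE 0.14, 95% interval -1.32 to -0.71, edgeR adjusted p = 0.00226), and it was called under all 16 alternatives, at -1.13 to -0.89.

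CDKN2A lies beside it and encodes p16 and, from another first exon and reading frame, the tumour suppressor ARF (ENSG00000147889, chromosome 9, 21967753 to 21995301, minus strand). Gene counts do not separate the 2 products. It had 303 and 382 CPM in the CYR61 cultures, against 483 and 415 CPM in the vector cultures. The CYR61 values were the lower ones, but the cultures of each group also differed from each other. The log2 fold change was -0.39 (SE 0.14, 95% interval -0.69 to -0.08, edgeR adjusted p = 0.120), so it was not called. It was called in 5 of 16 alternatives, and those on all 4 libraries called 10.4% to 44.3% of all tested genes, against 6.39% in the fit on group alone. Single libraries moved it both ways, to -0.56 without CYR61 2 (edgeR adjusted p = 0.0252), -0.22 without CYR61 1 (0.602), -0.28 without vector 1 (0.540) and -0.49 without vector 2 (0.121). Removal of the trend on GC content within each library gave -0.29 (adjusted p = 0.00818), in a fit that called 28.0% of all tested genes. The model ENSG00000264545 runs across CDKN2A and CDKN2B on the other strand with 0 exon bases shared. It had 3.35 and 6.64 CPM in the CYR61 cultures and 5.84 and 4.98 CPM in the vector cultures, and it was not called (log2 fold change -0.14). CDKN2B-AS1, also on the other strand, shares 341 exon bases with CDKN2A, and DINOL, opposite CDKN1A, shares 146 with CDKN1A. Neither has counts of its own in these data, and whether their reads entered the counts of CDKN2A or CDKN1A was not tested.

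CDKN2C, which encodes p18 (ENSG00000123080, chromosome 1, 50960745 to 50974633, plus strand), had 79.7 and 79.3 CPM in the CYR61 cultures, against 77.6 and 78.8 CPM in the vector cultures. All 4 values lay close together. Its log2 fold change was 0.02, with a 95% interval of -0.23 to 0.28. CDKN2D, which encodes p19 (ENSG00000129355, chromosome 19, 10566462 to 10569059, minus strand), was the rarest tested gene of the set. It had 88 and 58 counts in the CYR61 libraries and 113 and 87 in the vector libraries, or 4.09 and 3.63 CPM in CYR61 and 5.999 and 3.94 CPM in vector cultures. The groups overlapped, and the log2 fold change of -0.35 had a wide 95% interval, -0.94 to 0.24. It was -0.02 without vector 1 and -0.62 without vector 2. The sum of the 4 INK4 genes, most of it CDKN2A, was 105 and 124 CPM per kb in the CYR61 cultures and 157 and 139 CPM per kb in the vector cultures.

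**Figure D3:**
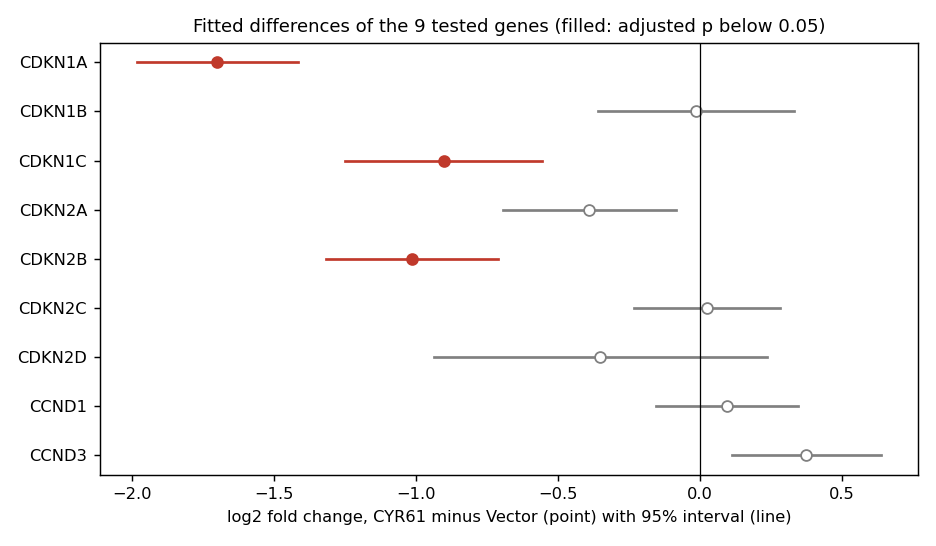
Log2 fold change of CYR61 minus vector (point) with its 95% interval (line) for the 9 tested genes, filled where the edgeR adjusted p is below 0.05. CDKN1A at -1.70, CDKN2B at -1.01 and CDKN1C at -0.90 are filled, and CCND3 at 0.38 lies farthest to the right.

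Of the D-type cyclins, CCND1, the isoform most often raised in tumours (ENSG00000110092, chromosome 11, 69641087 to 69654474, plus strand), had 180 and 163 CPM in the CYR61 cultures, against 159 and 162 CPM in the vector cultures. The second CYR61 culture was close to the vector cultures. On the log2 scale the fold change was 0.09 (95% interval -0.16 to 0.34, edgeR adjusted p = 0.669), and no alternative called it. LTO1, on the opposite strand, shares 497 exon bases with CCND1. At 13.0 and 12.6 CPM in the CYR61 cultures and 14.8 and 15.4 CPM in the vector cultures it was far less abundant.

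CCND3 (ENSG00000112576, chromosome 6, 41934933 to 42050357, minus strand), the D-type cyclin with a main role in blood cells, had 179 and 196 CPM in the CYR61 cultures, against 154 and 136 CPM in the vector cultures. Both CYR61 values were above both vector values. The log2 fold change was 0.38 (SE 0.12, 95% interval 0.11 to 0.64, edgeR adjusted p = 0.0926), and CCND3 was not called. It was called in 4 of 16 alternatives, which called 10.4% to 44.3% of all tested genes, against 6.39% in the fit on group alone. Removal of the GC trend, in a fit that called 28.0% of all tested genes, gave 0.45 (adjusted p = 0.000576). Leaving out 1 library gave no call for it (adjusted p by edgeR 0.122 to 0.505).

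CCND2 (ENSG00000118971, chromosome 12, 4273772 to 4305350, plus strand) was listed at 0 in all 4 libraries. A count of 0 allows up to 3 counts, or 0.136 to 0.188 CPM in these libraries, for counting error only. Its locus holds a further gene model, ENSG00000285901, which has 3435 exon bases and shares 989 of them with CCND2 and 1711 with the neighbouring TIGAR. This model had 30.4 and 43.7 estimated counts in the CYR61 libraries, against 0 and 0 in the vector libraries. It was called higher (log2 fold change 8.32, edgeR adjusted p = 0.00274), a fold whose size rests on the counts of 0. With vector set to the floor of 3 counts per library, the mean CPM of the CYR61 libraries was 14.1 times the mean of that floor. The CYR61 libraries differed, at 1.42 and 2.74 CPM, and no error was allowed for their few counts. Whether those reads came from CCND2, from TIGAR or from a joint transcript cannot be read from gene counts, so the value is uncertain. TIGAR had 11.7 and 8.21 CPM in the CYR61 cultures and 9.61 and 12.9 CPM in the vector cultures, with overlap between groups.

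CCND1 and CCND3 made up all the counts assigned to the D-type cyclins. Per kb of merged exon, CCND1 was 52.3 ± 3.26% of the sum in CYR61 cells and 57.2 ± 2.45% in vector cells (SD, n = 2 each). With the longest transcript as length, CCND1 was the smaller share, at 33.7% in CYR61 and 38.2% in vector cells. The difference per kb of merged exon was -4.88 percentage points, or -2.57 without CYR61 2 and -3.15 without vector 2, and the two-sided exact permutation p was 0.333, the smallest that 2 against 2 allow.

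The order of levels per kb put CDKN2A first in both groups, at 79.2 ± 12.9 CPM per kb in CYR61 and 104 ± 11.2 CPM per kb in vector cells. In CYR61 cells CCND1 (35.5 ± 2.44) and CCND3 (32.3 ± 2.01) came next, followed by CDKN2C (24.0), CDKN1B (18.9 ± 2.44), CDKN1C (11.7 ± 1.09), CDKN2B (8.58 ± 0.946), CDKN1A (8.52 ± 0.0263) and CDKN2D (2.57). In vector cells the order after CDKN2A was CCND1 (33.3 ± 0.435), CDKN1A (27.7 ± 0.922), CCND3 (24.9 ± 2.16), CDKN2C (23.6), CDKN1C (21.8 ± 3.55), CDKN1B (19.1 ± 3.20), CDKN2B (17.3 ± 0.948) and CDKN2D (3.31). By merged exon length CDKN1A was thus the eighth of the 9 tested genes in CYR61 cells and the third in vector cells. Some neighbours lay within their spread, such as CDKN2B and CDKN1A in CYR61 cells and CDKN1C, CDKN1B and CDKN2B in vector cells. The order rests on gene length: per kb of the longest transcript CCND3, at 78.4 in CYR61 and 60.4 in vector cells, stood above CCND1, at 39.8 and 37.3. On that length CDKN1A, at 11.5, stood above CDKN2B (8.90) in CYR61 cells. In vector cells CDKN1A, at 37.2, stood below CCND3 and just below CCND1.

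Base composition moved with the spread inside each group. Genes rich in G and C were lower in CYR61 1 than in CYR61 2, and lower in vector 2 than in vector 1. Across the 10378 genes that averaged 5 CPM or more, these differences had rank correlations with GC content (Spearman's rho) of -0.78 and -0.73, given as a description. CDKN2A and CDKN1C, whose longest transcripts are 61.4% and 63.8% GC against a median of 48.8% for tested genes, differed between cultures in those directions. CDKN1B, at 47.7% GC, went the other way in both groups. Not every gene of the set followed its base composition: CDKN2B, at 44.6% GC, differed like the GC-rich genes in both groups. CDKN2C, at 58.1% GC, differed slightly against the trend in both, and CDKN2D, at 61.3% GC, did so between the CYR61 cultures. With the trend removed, the log2 fold change was -1.61 for CDKN1A, -0.79 for CDKN1C and -1.03 for CDKN2B. The 3 genes were called there too, where 13.2% of all tested genes were called lower and 14.8% higher. With the replicate number as a block the same 3 were called, against 2.66% lower and 0.417% higher of all tested genes. Without a filter CDKN2A (lower) and CCND3 (higher) were added, against 6.4% and 4.03%.

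**Figure D4:**
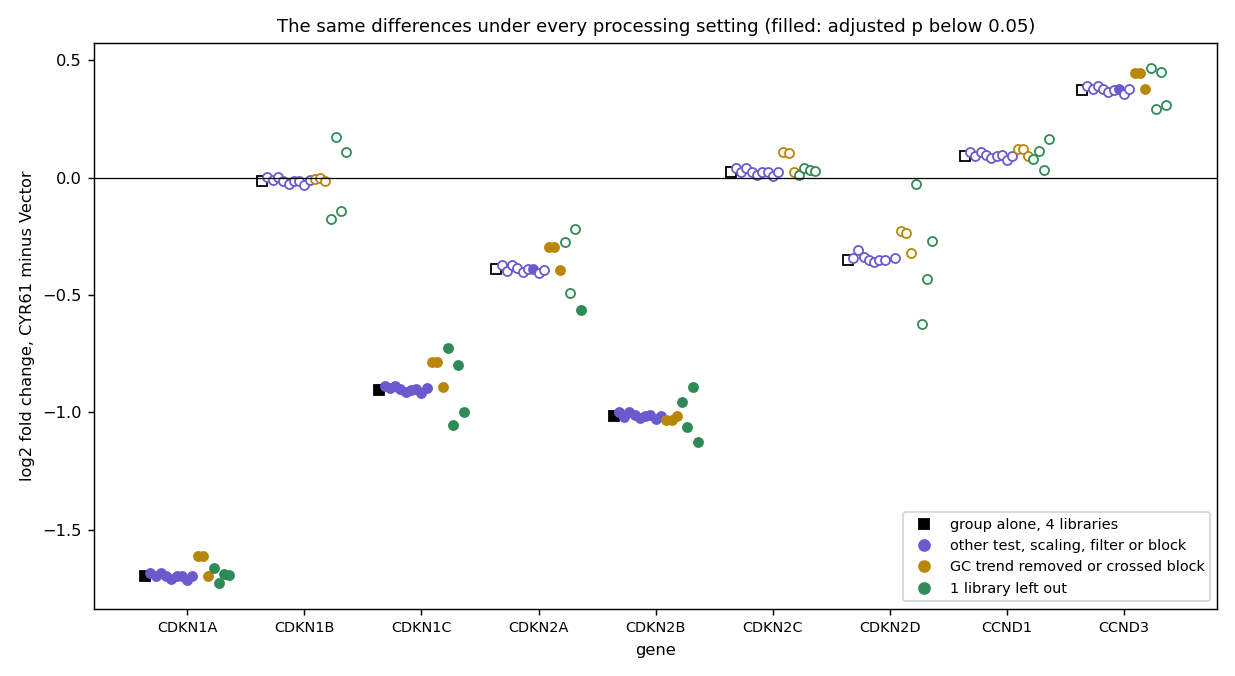
Log2 fold change of CYR61 minus vector for each tested gene under the fit on group alone (square) and 16 alternatives (circles; 15 for CDKN2D), coloured by kind and filled where the adjusted p is below 0.05. CDKN1A, CDKN1C and CDKN2B are filled throughout, CDKN2A and CCND3 in some settings, and CDKN1B lies on both sides of 0.

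The genes that act with these inhibitors and cyclins were taken as 5 lists with 104 tested genes in all. Among 14 kinases and cyclin partners of G1 and S phase, 1 rose and 0 fell, where 1.83% of all tested genes were called higher and 4.56% lower. The median log2 fold change was 0.02, against -0.0057 over all tested genes. The gene that rose was CCNA2, the S-phase and G2 cyclin bound by CDK2 and CDK1, at 124 and 117 CPM in CYR61 against 80.3 and 82.7 CPM in vector cultures (0.57, edgeR adjusted p = 0.0173). That call was lost without vector 1 (edgeR adjusted p = 0.133), without vector 2 (0.0775) and with the replicate number as a block (0.175). The partners of the D-type cyclins were not called: CDK4 was at 316 and 338 CPM in CYR61 against 334 and 309 CPM in vector cultures, and CDK6 at 301 and 242 against 252 and 315 CPM.

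Of 19 pocket protein, E2F and DREAM complex genes, which hold or drive S-phase transcription, edgeR, DESeq2 and limma-voom each called 0. Of all tested genes, edgeR called 1.83% higher and 4.56% lower, DESeq2 2.8% and 4.64%, and limma-voom 1.72% and 4.37%. At such shares few calls fall in a list of this size, so 0 calls say little. At an unadjusted p below 0.05, edgeR had 1 higher and 1 lower, against 9.77% and 13.2% of all tested genes. The median was 0.02. E2F1, an activator factor and itself a target of E2F, had the smallest p (log2 fold change -0.41, edgeR adjusted p = 0.0758), and RB1 was at -0.07. Of 20 E2F target genes of S phase, such as the MCM helicase subunits, the same 3 tools called 0, with 3 higher and 2 lower at an unadjusted p below 0.05 in edgeR, near those shares over all genes, and a median of -0.0019. GINS2, a subunit of the replicative helicase, had the smallest p, at 0.44 (edgeR adjusted p = 0.0807). After removal of the GC trend, 4 of the 19 were called higher and 2 lower, and 3 of the 20 higher and 4 lower, in a fit that called 14.8% of all tested genes higher and 13.2% lower.

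Among 20 genes that govern turnover of CDK inhibitors and D-type cyclins, 2 rose and 1 fell, where 1.83% of all tested genes were called higher and 4.56% lower, with a median of -0.01. SKP2, the F-box protein that marks p27 and p21 for destruction, had 123 and 112 CPM in CYR61 cultures, against 78.1 and 86.3 CPM in vector cultures (log2 fold change 0.52, edgeR adjusted p = 0.0339). CDC20, the activator of the anaphase-promoting complex, rose by 0.48 and CSNK1E, a casein kinase, fell by 0.51 on the log2 scale. These calls were lost when libraries were left out. By edgeR, leaving out vector 1 gave an adjusted p of 0.280 for SKP2, 0.0726 for CDC20 and 0.177 for CSNK1E, and leaving out vector 2 gave 0.0792 for SKP2, 0.270 for CDC20 and 0.0979 for CSNK1E. Without CYR61 1 it was 0.131 for SKP2 and 0.191 for CSNK1E, without CYR61 2 it was 0.109 for CDC20, and with library size alone it was 0.0548 for SKP2. With the replicate block it was 0.253 for SKP2, 0.279 for CDC20 and 0.247 for CSNK1E.

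Of 31 transcription factors and repressors reported at promoters of the 10 genes, 6 fell and 0 rose, against 4.56% and 1.83% of all tested genes, with a median log2 fold change of -0.26. DESeq2 and limma-voom each called 6 lower and 0 higher as well. They called 4.64% and 4.37% of all tested genes lower, and 2.8% and 1.72% higher. At an unadjusted p below 0.05 in edgeR, 0 of the 31 were higher and 13 lower, against 9.77% and 13.2% of all tested genes. BHLHE40, a basic helix-loop-helix repressor, fell by 1.24 on the log2 scale (edgeR adjusted p = 0.000435). CEBPA, a liver factor that stabilises p21 protein, had 6.51 and 7.08 CPM in CYR61 cultures, against 15.4 and 15.1 CPM in vector cultures (log2 fold change -1.17, edgeR adjusted p = 0.0039). KLF4, an activator of CDKN1A, had 76.9 and 91.1 CPM in CYR61 cultures, against 148 and 147 CPM in vector cultures (-0.81, edgeR adjusted p = 0.00461). JUN, an AP-1 subunit that activates CCND1, fell by 0.94. ETS2, an activator of the p16 promoter, fell by 0.75, and ID1, a repressor of it, fell by 0.73. These 6 were called under all 16 alternatives. MYC (-0.26), ZBTB17, which encodes MIZ1 (-0.31), SP1 (-0.26) and SMAD3 (-0.20) were not called.

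By likeness over the 4 libraries, measured as Euclidean distance between centred log2 CPM values among 10378 genes of at least 5 CPM, the nearest to CDKN1A were MALL, IGFBP1 and KIF21B, at distances of 0.118 to 0.169. The nearest to CDKN1C were GADD45B, ENO2 and ACSS2 (0.0349 to 0.0649), and to CDKN2B CEBPB, ADGRD1 and AARS1 (0.0186 to 0.0539). With 4 libraries in 2 groups, such likeness mostly restates a similar log2 fold change.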

How the data were processed

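RNA from 4 libraries was sequenced, 2 from CYR61-expressing and 2 from vector HLE cultures, and grouped by sample title. For each library the authors deposited estimated counts per gene, not normalized, of which 11.2% to 12.0% are not whole. Per the submitters' processing notes, reads were handled on hg38, and the tools named are Cuffdiff 1.3.0, TopHat2 2.1.1 and Cufflinks 2.2.1, with no role stated. No source used here gives the counting program, the annotation release or strandedness, so reads of overlapping and antisense genes cannot be told apart.

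Counts were rounded, filtered by filterByExpr (12698 of 20286 genes kept), scaled by TMM and tested with edgeR 4.0.16 in R 4.3.3 (glmQLFit and glmQLFTest, group alone, Benjamini-Hochberg over all tested genes, threshold 0.05). SEs were derived from each log2 fold change and its F statistic, and 95% intervals from the SE and the fit's total degrees of freedom. Symbols came from a table holding 20228 of the identifiers, and positions and exon lengths from GENCODE release 29 (GRCh38), holding 20212. The sequences are from RefSeq. Scripts were tested on simulated counts, with the same spread set for every gene. Of 50 genes changed at each fold, 48% were recovered at 1.5-fold and 100% at 2-fold and above, with 9 false calls. Smaller changes were not simulated. Depth was 16186988 to 21588822 counts per library, and a floor of 3 counts was used for a count of 0.

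The genes named are CCN1, all 10 genes of the set, up to 4 called genes per list or 1 of smallest p, gene models overlapping a gene of the set, and 3 nearest genes per called gene. ENSG00000264545, the markers named, TIGAR, ETS2, ID1, and the uncalled genes CDK4, CDK6, RB1, MYC, ZBTB17, SP1 and SMAD3 were added after their values were seen. The genes and lists were chosen with earlier results of these data known. Alternatives were DESeq2 1.42.0, limma-voom (limma 3.58.1), RLE, upper quartile or library size scaling, CYR61 left out of library sizes, no filter, 5 CPM in 2 libraries, the replicate block, removal of the GC trend (a natural spline of 5 df), without and with the block, each library left out and, added after the data were seen, a crossed block. A list of 6 RNA genes beside these loci was not analysed here, and 1 gene of the lists is counted but not reported here by name.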

Additional observations from a re-analysis of the deposited data

How the results depend on the processing

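CDKN1A, CDKN1C and CDKN2B kept their direction and their call under all 16 alternatives. Of the settings on the 9 tested genes, 130 left direction and call as they were, 9 added a call for CDKN2A or CCND3, and 4 turned the sign of CDKN1B, which was never called: DESeq2 (0.0014), RLE size factors (0.0015), without vector 2 (0.17) and without CYR61 2 (0.11), in a range of -0.17 to 0.17 with a library left out. The genes of the set called lower numbered 3, or 4 where CDKN2A was added. Those called higher numbered 0, but 1, CCND3, without a filter, with the GC trend removed, with that and the replicate block, and with the crossed block. The number of all genes called was 811, of which 28.6% were higher. It was 1677 without a filter (38.6% higher), 3561 with the GC trend removed (52.8% higher), 2233 with that and the replicate block, and 481 without vector 1 to 1331 without CYR61 2. Across the 5 lists, 3 of the 104 genes were called higher and 7 lower, where 1.83% and 4.56% of all tested genes were. The list of transcription factors and repressors gave 6 of these lower calls and 0 of the higher ones. Without a filter the lists gave 6 higher and 12 lower calls, where 4.03% and 6.4% of all tested genes were called. After removal of the GC trend they gave 16 and 25, where 14.8% and 13.2% of all tested genes were called. They gave 10 and 12 when the replicate block was added to that, where 17.6% of all tested genes were called in either direction. Leaving a library out gave 0 to 3 higher and 6 to 10 lower calls. CDKN1A's share of the CIP/KIP counts differed by -19.8 percentage points without division by length and by -19.0 to -18.0 with a library left out. For CCND1 among the D-type cyclins that range was -7.18 to -2.57. CDKN2D was below the filter of 5 CPM and has no value there, and counts summed over the CCND2 locus equal those of ENSG00000285901. Where these values moved, the cause was not tested.

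Libraries with the same number deviated in opposite directions (r = -0.71). With 2 libraries per group, those with different numbers then deviate alike by construction (r = 0.71). The labels do not say whether cultures with the same number were handled together, and this was not tested. With the replicate block 391 genes were called, 0.417% of all tested genes higher and 2.66% lower. Among them were 3 genes of the set, all lower, and of the 104 genes of the lists 0 were higher and 6 lower. With crossed pairs 5624 of 12698 tested genes were called, 2748 higher and 2876 lower. In that fit 4 genes of the set were lower and 1 higher, and of the 104 genes 36 were lower and 21 higher. CDKN2D and the CCND2 locus had few counts, at 113 or fewer per library, and the part of depth in their spread was not tested.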
